A study of Schizosaccharomyces pombe with 12 samples.

Results

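The mug genes of fission yeast (Schizosaccharomyces pombe) are genes whose names, mug and a number, stand for meiotically upregulated. They were chosen here as the probe sets with exactly 1 gene whose symbol in the platform annotation is mug and a number, a rule that uses names alone. This gave 115 probe sets of 115 genes, 1 probe set for each, among 2917 probe sets of 2899 S. pombe genes. Of the 115 genes, 91 keep the mug name in the RefSeq gene table and 24 now carry another symbol, such as fzr3 for mug55 and igo1 for mug134.

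Expression was measured on 12 Affymetrix Yeast Genome 2.0 arrays, 1 for each of 3 strains in 4 treatments, and the study asks what the HIRA complex does in the response to a mild stress that precedes a severe one. The wild type (WT, strain JK317) was h-, leu1-32, ura4-D18, and the strains slm9D (MC3749) and hip1D (MC3725) carried in addition slm9::ura4 or hip1::ura4. All 3 strains thus share the mating type h- and the leu1-32 and ura4-D18 alleles, and each mutant is represented by 1 strain. Log-phase cells in YES medium at 32 °C had no stress, 1 h at 40 °C, 1 h of 25 mM H2O2, or 1 h at 40 °C followed by 1 h of 25 mM H2O2. Both deletions were marked with ura4 and the WT lacked it, so an effect of a deletion and an effect of the marker cannot be told apart. The labels do not say that the arrays of a strain came from separate cultures, and p-values therefore cover no more than the spread among the 12 arrays, which may be technical.

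When S. pombe cells starve for nitrogen, cells of opposite mating type fuse, and the resulting diploid enters meiosis and forms spores. Transcription factors such as Ste11 and Mei4 switch on genes in successive waves, and in growing cells the RNA-binding protein Mmi1 marks some meiotic transcripts for destruction. Slm9 and Hip1 are subunits of HIRA, a histone chaperone that places histones on DNA outside of replication and that is known in fission yeast for keeping silent regions and some inducible genes repressed. The mug genes were named for a rise of their transcripts during meiosis, and their products range from meiotic regulators to proteins used in every growing cell.

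The array of WT cells after H2O2 alone stood apart, where S. pombe probe sets had the lowest median (log2 9.36, against 9.46 to 9.57 on the others) and the highest background level. The background level is the 95th percentile of 2601 probe sets named for genes outside the S. pombe table. It lay between 3.73 and 4.03 (log2) on the WT arrays and between 3.55 and 3.80 on the mutant arrays, and it was higher in WT than in either mutant in each treatment. Mean slm9 signal was 9.59 in WT, 9.74 in hip1D and 5.14 in slm9D. Signal of hip1 was 9.51 in WT, 9.63 in slm9D and 8.39 in hip1D, where it was lower than in WT but stayed far above background. Where the hip1 probe set lies relative to the deleted part is not given in the sources used here, so its signal does not check that deletion. Signal of ura4 was 4.69 for WT, 11.46 for slm9D and 11.64 for hip1D. All 8 probe sets of M-cell (h-) markers were above background on all arrays, with a summed level of 11.1 to 11.4 (log2) in WT, 10.9 to 11.4 in slm9D and 10.9 to 11.5 in hip1D. Over all treatments 5 of these 8 were called higher in the mutants and 1 lower, against 25.3% and 28.7% of all probe sets. The lower one was mfm2, by -1.82 ± 0.23, and the median of the 8 was 0.66. The tested P-cell (h+) markers map2 and map3 were above background on all arrays too, with a summed level of 7.36 to 7.79 in WT, 7.65 to 8.27 in slm9D and 7.64 to 8.34 in hip1D, and map2 was higher in the mutants by 0.79 ± 0.13. The part of these markers in the results below was not tested, and in whole cultures fewer cells of a type and less RNA per cell cannot be told apart.

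Nearly all mug genes gave signal above background in growing cells of every strain, and fewer of them did so on each WT array than on any mutant array. On the WT arrays 105 of 115 mug probe sets were above background without stress, 110 at 40 °C, 103 after H2O2 and 110 after both. On the slm9D and on the hip1D arrays it was 112 without stress and 113 in each of the other 3 treatments. The mean share was 93.0% ± 3.09 in WT (SD, n = 4 arrays) and 98.0% ± 0.403 in the mutants (n = 8), with no overlap between the arrays of WT and of the mutants. Over all 2917 probe sets the shares were 98.8% ± 0.568 and 99.7% ± 0.0578, and the arrays of WT and of the mutants did not overlap there either. No test was made of these shares. The background level was higher in WT than in either mutant in each treatment. With 1 common level for all arrays, the mean of the 12, the mug shares were 94.8% in WT and 98.0% in the mutants. The gap was narrower there, and the arrays still did not overlap. With the 99th percentile as the background level the mug shares were 87.8% and 96.4%, and the arrays overlapped, with 93 to 109 mug genes above it in WT and 108 to 113 in the mutants.

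**Figure D1:**
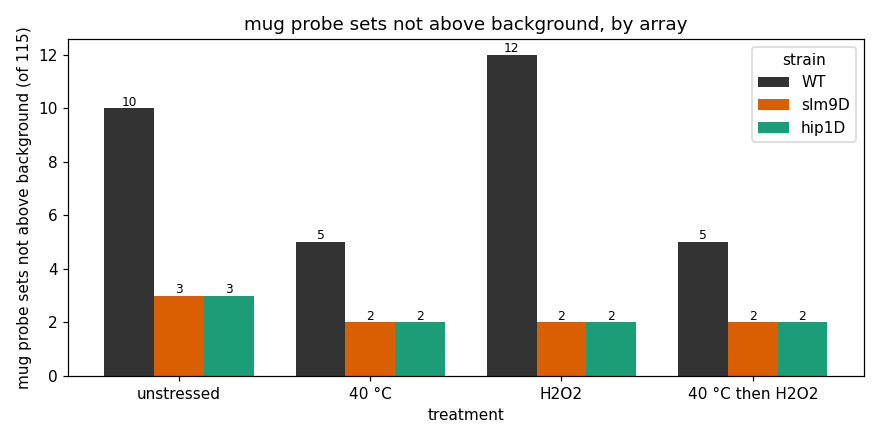
Number of the 115 mug probe sets that were not above the background level of their array, for each of the 12 arrays, grouped by treatment and coloured by strain. The WT bars reach 10, 5, 12 and 5, and the mutant bars stay at 3 without stress and 2 in the other treatments.

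The difference in share came from 12 genes. Of the 115, 101 were above background on all 12 arrays, and mug114 and mug116 on none, with log2 values of 2.57 to 3.11 and 2.38 to 3.04. mug55, mug62 and mug137 were above background on none of the 4 WT arrays and on all 8 mutant arrays. That pattern was shown by 4 of all 2917 probe sets, or 0.137%, and the other was ssm4, a meiotic gene that Mmi1 acts on. mug28 and mug68 were above background on 2 WT arrays, mug27, mug93, mug108, mug112, mug126 and mug131 on 3, and all 8 of these on every mutant array. mug96 was above background on 2 WT and 6 mutant arrays, and was below it in all 3 strains without stress.

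mug137 was at log2 3.48 in unstressed WT cells, 3.71 at 40 °C, 3.28 after H2O2 and 2.54 after both. In the same order it was at 7.10, 7.50, 7.51 and 7.35 in slm9D and at 7.18, 7.60, 7.25 and 7.53 in hip1D. All mutant values thus lay above all WT values, and both mutants were alike. The mutants were higher by 4.13 ± 0.18 on the log2 scale (SE, 8 against 4 arrays, limma adjusted p = 6.27e-07). Since no WT array was above background, the fold is given with the background level in the place of the WT signal wherever it is higher, and was at least 11.3-fold.

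mug62 was at 3.07, 3.17, 3.88 and 3.78 in WT, at 6.54, 6.69, 7.13 and 6.94 in slm9D and at 6.79, 6.76, 7.05 and 7.11 in hip1D. It was at least 7.98-fold higher in the mutants (log2 difference 3.40 ± 0.11, limma adjusted p = 1.41e-07). mug55 (fzr3) encodes a meiotic activator of the anaphase-promoting complex, the ubiquitin ligase that drives cells out of a division. It was at 2.79, 3.27, 3.25 and 2.91 in WT, at 4.84, 6.66, 6.84 and 6.20 in slm9D and at 5.07, 6.81, 6.76 and 6.36 in hip1D. It was at least 4.97-fold higher in the mutants (3.14 ± 0.21, limma adjusted p = 5.43e-06), with its lowest mutant values in unstressed cells.

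Averaged over the 4 treatments, mug genes were higher in the HIRA mutants more often than lower. Of the 115, 52 were called higher in slm9D and hip1D than in WT, 13 were called lower and 50 did not pass the test (limma, adjusted p under 0.05 over all 2917 probe sets). The calls made up 54% of all probe sets tested, with 25.3% higher and 28.7% lower, so the share of mug genes called was near that background while their split was not. A rise of at least 2-fold was called for 23 mug genes, against 6.41% of all probe sets. A fall of that size was called for 0 of the 115 and was rare throughout, with 18 of all 2917 probe sets. The median log2 difference was 0.24 for the mug genes and -0.02 for all probe sets. Counts depended on the scaling: with quantile normalization repeated on the S. pombe probe sets alone, 40 mug genes were called higher and 38 lower, with a median of 0.05. Without the array of WT cells after H2O2 alone the counts were 46 and 12 and the median 0.14, and without hip1D they were 35 and 6. Here and below, counts of calls under another scaling or with arrays left out stand without the share of all probe sets. They cannot be set against the shares given for the deposited values.

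**Figure D2:**
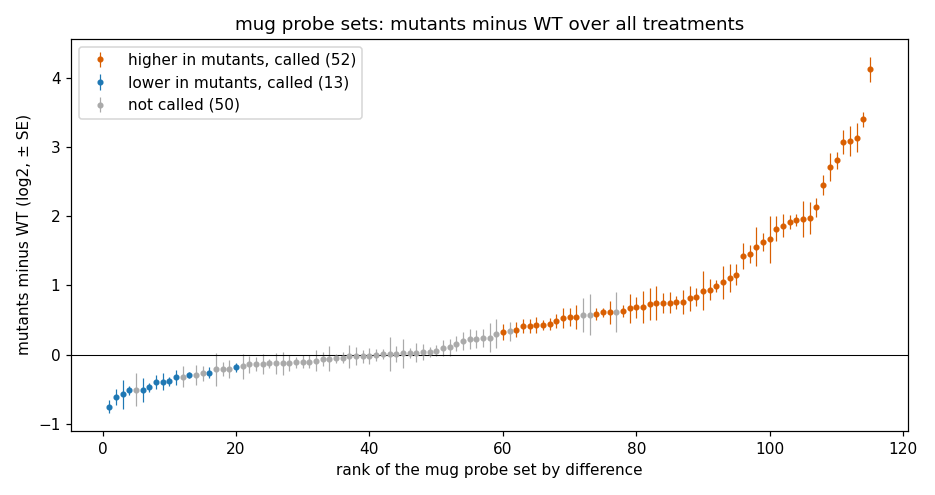
Difference between the mutants and WT over all treatments for each of the 115 mug probe sets, ranked from lowest to highest, in log2 units with the standard error as a bar and colours for the call. The 52 genes called higher reach 4.13 for mug137, while the 13 called lower reach no further than the value of mug151.

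On 22 mug genes (19.1%) all 8 mutant arrays lay above all 4 WT arrays, against 7.64% of all probe sets, and on 1 gene, mug151, all 8 lay below, against 3.77%. The 22 genes were mug1, mug4, mug24, mug27, mug28, mug45, mug55, mug62, mug73, mug74, mug93, mug95, mug97, mug109, mug111, mug131, mug132, mug136, mug137, mug138, mug170 and mug174.

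Several of the genes with the largest rises have known parts in sporulation or in RNA binding. mug28 encodes an RNA-binding protein needed for the forespore membrane, which encloses the nuclei that become spores. In log2 units it was at 3.84, 5.0, 3.83 and 4.29 in WT (unstressed, 40 °C, H2O2, both), at 7.0, 7.54, 7.57 and 7.02 in slm9D and at 7.23, 7.45, 7.45 and 7.22 in hip1D. The groups did not overlap, and the mutants were higher by 3.07 ± 0.17 (limma adjusted p = 2.31e-06). mug27 encodes a protein kinase that acts in forming the forespore membrane. It was at 4.07, 6.14, 3.81 and 5.78 in WT, at 6.49, 7.43, 6.71 and 6.74 in slm9D and at 6.60, 7.51, 6.70 and 7.13 in hip1D. The WT values were near background without stress and after H2O2 and higher in both treatments with 40 °C, and the mutants were higher by 1.96 ± 0.26 (limma adjusted p = 0.000268). mug24, which encodes another RNA-binding protein, was at 5.26, 5.53, 4.67 and 4.83 in WT, at 6.84, 7.60, 6.61 and 6.85 in slm9D and at 7.01, 7.42, 6.64 and 6.94 in hip1D. Its difference of 1.92 ± 0.10 (limma adjusted p = 1.4e-06) was seen in every treatment.

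mug136 (otg2) encodes a galactosyltransferase, an enzyme that adds sugars to glycoproteins. It was at 6.01, 5.69, 4.88 and 5.28 in WT, at 8.35, 8.42, 8.04 and 8.36 in slm9D and at 8.39, 8.29, 7.97 and 8.36 in hip1D. Its mutant arrays stayed between 7.97 and 8.42, and the mutants were higher by 2.81 ± 0.13 (7.01-fold, limma adjusted p = 6.27e-07). mug1 (jnm1), a subunit of the dynactin complex that works with the motor dynein in the nuclear movements of meiosis, was at 5.56, 6.15, 5.58 and 6.28 in WT, at 6.47, 7.11, 6.74 and 7.16 in slm9D and at 6.52, 7.05, 6.71 and 7.31 in hip1D. Its groups did not overlap, with a difference of 0.99 ± 0.08.

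The remaining genes with large rises are named here by their values alone. mug108 had the widest range over the 12 arrays of all mug genes. It was at 3.66 in unstressed WT cells, 6.39 at 40 °C, 6.96 after H2O2 and 9.17 after both, against 6.78, 9.67, 10.36 and 11.20 in slm9D and against 7.47, 9.93, 10.46 and 11.22 in hip1D. The unstressed mutant arrays were below the WT array after both stresses, so the groups overlapped, and the mutants were higher by 3.09 ± 0.22 (limma adjusted p = 8.49e-06). mug97 was at 5.19, 6.09, 5.05 and 5.38 in WT, at 8.32, 7.85, 8.24 and 7.98 in slm9D and at 8.29, 7.88, 8.39 and 8.14 in hip1D, a difference of 2.71 ± 0.20 (limma adjusted p = 1.23e-05). Between unstressed and heated cells it differed by 0.91 in WT and by -0.48 and -0.41 in slm9D and hip1D.

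mug95 was at 5.18, 6.05, 5.35 and 4.99 in WT, at 7.25, 8.20, 7.88 and 7.98 in slm9D and at 7.34, 8.25, 7.79 and 8.08 in hip1D, a difference of 2.45 ± 0.14. mug131 was at 4.39, 5.08, 3.76 and 4.41 in WT and between 6.17 and 6.89 on the mutant arrays, a difference of 2.13 ± 0.14. mug135 was at 8.15, 10.28, 8.55 and 8.17 in WT, at 10.31, 11.89, 10.69 and 9.85 in slm9D and at 10.42, 12.14, 10.55 and 10.06 in hip1D. Its groups overlapped because the WT array at 40 °C was above 2 mutant arrays of cells given both stresses, and the difference was 1.95 ± 0.09 (limma adjusted p = 8.56e-07). mug111, mug4 and mug93 were higher in the mutants by 1.97 ± 0.23, 1.86 ± 0.17 and 1.82 ± 0.18, with no overlap between the groups.

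The other genes whose groups did not overlap showed smaller gaps. mug45 lay between 4.97 and 5.72 in WT and between 6.70 and 7.30 on the mutant arrays, a difference of 1.63 ± 0.13, and mug73 between 5.17 and 6.17 against 6.85 to 7.61, a difference of 1.46 ± 0.13. mug132 ranged from 4.75 to 7.03 in WT and only from 7.66 to 8.07 in the mutants, and its difference was 1.56 ± 0.29, with the WT array after H2O2 alone at 4.75 and the other WT arrays at 6.44 or more. mug170, mug74, mug138, mug174 and mug109 were higher by 1.15 ± 0.15, 1.11 ± 0.21, 0.63 ± 0.09, 0.61 ± 0.07 and 0.59 ± 0.09. Averaged over the treatments, the genes of strong signal mug35 and mug161 differed between mutants and WT by 0.04 ± 0.12 and -0.21 ± 0.12. Neither passed, and mug64 was lower by 0.30 ± 0.05. Within treatments mug35 and mug161 went both ways, each time against a lone WT array. mug35 differed by -0.24 in unstressed cells, -0.08 in heated cells and 0.63 after H2O2 alone. In the same order mug161 differed by 0.14, -0.65 and 0.15.

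**Figure D3:**
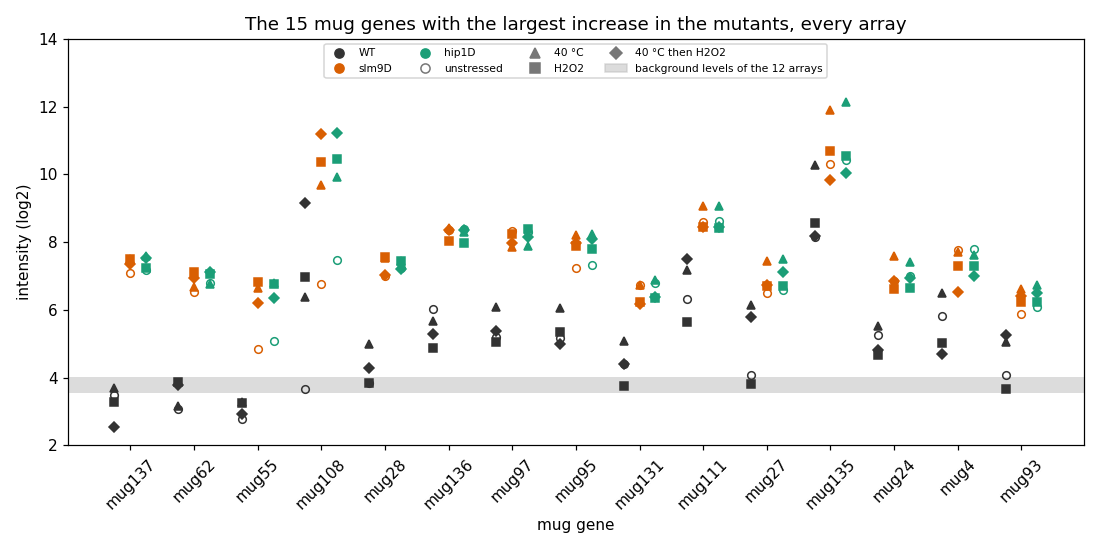
Log2 intensity of the 15 mug genes with the largest rise in the mutants on each of the 12 arrays, with colours for strains, marker shapes for treatments and a grey band for the range of the background levels. The WT points of mug137, mug62 and mug55 lie within or under the band and all mutant points lie above it, while the groups of mug108 and mug135 overlap.

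The genes called lower in the mutants moved less. mug151 was at 9.68, 10.27, 10.40 and 9.96 in WT, at 9.29, 9.44, 9.37 and 9.18 in slm9D and at 9.18, 9.56, 9.28 and 9.27 in hip1D. The groups did not overlap, and it was lower by 0.75 ± 0.09 (limma adjusted p = 0.000182). mug134 (igo1) encodes an endosulfine, a small inhibitor of the phosphatase PP2A that acts when nutrients run short. It was at 11.26, 11.16, 10.82 and 11.46 in WT, at 10.38, 10.23, 10.45 and 11.30 in slm9D and at 10.38, 10.10, 10.47 and 11.18 in hip1D. The gap to WT was wide without stress and at 40 °C and narrow after both stresses, and it averaged -0.62 ± 0.12 (limma adjusted p = 0.00193). mug69 (snd2), which takes part in sending proteins to the endoplasmic reticulum, was lower by 0.52 ± 0.06, and WT was above both mutants in each treatment. The other 10 genes called lower differed by less than 0.6, among them mug56 (-0.48 ± 0.07), mug58 (-0.39 ± 0.06), mug177 (-0.58 ± 0.20), mug67 (-0.51 ± 0.17), mug65 (-0.40 ± 0.10), mug124 (-0.39 ± 0.12) and mug86 (-0.33 ± 0.11). Without the array of WT cells after H2O2 alone, mug177 (-0.55), mug67 (-0.29) and mug86 (-0.18) no longer passed.

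The 24 genes that have been renamed include many with work in growing cells, and 11 of them were called higher, 3 lower and 10 neither, against 25.3% higher and 28.7% lower of all probe sets. Of the 91 that keep the mug name, 41 were called higher, 10 lower and 40 neither. Only fzr3 and otg2 among the renamed genes rose by at least 2-fold, against 21 of the 91 and 6.41% of all probe sets, and the difference between renamed and other mug genes was not tested. mug183 (rtt106) encodes another histone chaperone, and its difference averaged over the treatments, -0.21 ± 0.10, did not pass the test. Within treatments it went both ways, with 0.21 without stress and -0.31 both at 40 °C and after H2O2, each against 1 WT array. mug152 (teb1), which encodes a DNA-binding protein of telomere-like repeats and histone gene promoters, was higher by 0.48 ± 0.10. Of the autophagy genes mug66 (atg101) had a difference of 0.04 ± 0.07 that did not pass, and mug179 (atg1802) was higher by 0.44 ± 0.09. mug164 (mmb1), whose product ties mitochondria to microtubules, was higher by 0.54 ± 0.17, and mug158 (egt1), an enzyme of the synthesis of the antioxidant ergothioneine, by 0.73 ± 0.23. Both rest largely on the array of WT cells after H2O2 alone, without which mug164 was higher by 0.30 and mug158 by 0.38, and the latter no longer passed (limma adjusted p = 0.0607).

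No mug gene was called between the deletions of slm9 and hip1, but the test was a weak one. None of the 115 passed the test between slm9D and hip1D (limma), against 0.103% of all probe sets, and 0 of the 115 had an unadjusted p under 0.05. Of all 2917 probe sets 6 had such a p. The spread used in this test takes in treatment responses that differ between WT and the mutants, which makes calls rarer. A lack of calls therefore does not show that the deletions act alike. The differences averaged over treatments ran from -0.27 to 0.15 with a median size of 0.05. On single pairs of arrays the median size was 0.08 and the greatest 0.69, for mug108 in unstressed cells. Leaving out any of the 4 treatments also gave 0 calls, with the same limit.

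Within a treatment the 2 mutant arrays were compared with the lone WT array, on the assumption that WT arrays vary like mutant arrays. The SE and calls of this fit rest on the spread between slm9D and hip1D arrays, which are different strains, and hold no measured variation of WT. The median difference of the mug genes was 0.21 in unstressed cells, 0.15 in heated cells, 0.58 in cells given H2O2 and 0.16 in cells given both. In unstressed cells 61 of 115 were called higher and 30 lower, against 26% and 34.6% of all probe sets. At 40 °C it was 48 and 21 against 29.3% and 34.1%, after H2O2 it was 67 and 25 against 38% and 37.2%, and after both 54 and 19 against 29.5% and 29.6%. The H2O2 comparison rests on the WT array that stood apart. Among the genes called higher in unstressed cells is mug96, which was above background in neither group there. A rise of at least 2-fold was called for 26, 23, 40 and 19 mug genes in that order, against 5.76%, 6.38%, 12.8% and 5.9% of all probe sets. With quantile normalization on the S. pombe probe sets alone the calls higher and lower were 47 and 39 for unstressed cells, 39 and 42 for heated cells, 54 and 40 for H2O2 and 39 and 39 for both. Under that scaling the median turned to -0.13 at 40 °C and to -0.03 after both.

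**Figure D4:**
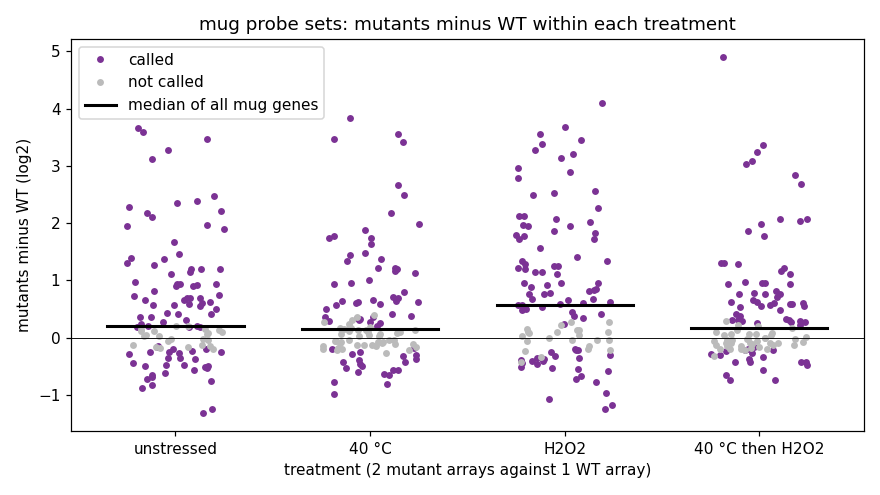
Log2 difference between the mean of the 2 mutant arrays and the WT array in each treatment, with 1 point for each of the 115 mug probe sets, purple where called and grey where not, spread sideways for legibility. The black lines mark the medians of 0.21, 0.15, 0.58 and 0.16.

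Of the 115 genes, 33 (28.7%) were called higher in all 4 treatments, against 13% of all probe sets, and 6 were called lower in all 4, against 13.1%. The 6 were mug56, mug58, mug64, mug69, mug134 and mug151. Another 26 genes (22.6%) were called higher in some treatments and lower in others, against 16.5% of all probe sets, and 7 (mug42, mug66, mug103, mug114, mug116, mug162 and mug184) were called neither overall nor in any treatment. The share of all probe sets without any such call was not counted, so it is open whether 7 is many or few. Of the 7, mug114 and mug116 were above background on no array.

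Without stress mug137 was at least 9.25-fold higher in the mutants, mug108 at least 9.16-fold, mug28 at least 9.11-fold, mug62 at least 6.67-fold and mug55 at least 2.04-fold. mug97, which was above background in WT, was 8.69-fold higher in the same cells. At 40 °C the bounds were 14.2-fold for mug137, 8.01-fold for mug62 and 8.04-fold for mug55. Without stress the bounds of mug68 and mug112 were 3.73-fold and 1.6-fold. After H2O2 alone 9 genes had such a bound. They were mug137, mug62, mug55, mug28, mug27, mug93, mug131, mug126 and mug68, with bounds from 2.33-fold for mug68 to 11.2-fold for mug28. After both stresses only mug137, mug55 and mug62 had them, of 12.2-fold, 5.44-fold and 9.1-fold.

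mug8 stood out after H2O2. It was at 4.84, 5.58, 4.06 and 6.74 in WT, at 5.93, 6.93, 7.44 and 7.45 in slm9D and at 6.07, 6.98, 7.44 and 7.55 in hip1D. The gap was thus 3.38 after H2O2, where the lone WT array was at its lowest. mug115 changed direction: it was at 6.33, 6.79, 4.42 and 6.06 in WT, at 5.06, 7.12, 4.87 and 5.73 in slm9D and at 4.97, 6.92, 4.72 and 6.06 in hip1D. It was lower in the mutants by 1.32 ± 0.15 without stress and called higher by 0.38 after H2O2, where the call turned to -0.77 under quantile normalization on the S. pombe probe sets alone. mug176 was at 8.98, 8.11, 8.04 and 5.31 in WT, at 8.20, 7.62, 6.79 and 5.92 in slm9D and at 8.23, 7.32, 6.79 and 5.92 in hip1D. It was lower in the mutants by 0.76 ± 0.11, 0.64 ± 0.11 and 1.25 ± 0.11 in the first 3 treatments, and called higher by 0.61 after both stresses, which turned to -0.43 under that scaling.

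Other falls in the mutants were seen within single treatments. mug177 was lower without stress by 1.25 ± 0.19 and mug155 by 0.83 ± 0.13. At 40 °C mug82 (pth4), a peptidyl-tRNA hydrolase gene, was lower by 0.81 ± 0.11 and mug161 by 0.65. After H2O2 mug67 was lower by 1.18 ± 0.14 and mug16 by 0.96 ± 0.10. After both stresses mug125 was lower by 0.74 ± 0.09 and mug100 by 0.57 ± 0.09, and mug161 was lower there too. mug56, called lower in all 4 treatments, was lower by 0.65 ± 0.09 after both stresses.

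Averaged over the 3 strains, holding cells at 40 °C raised many mug genes and lowered few. Against unstressed cells 55 of 115 rose and 4 fell (mug64, mug124, mug94 and mug113), against 22.7% and 25.7% of all probe sets. The median difference was 0.44 for the mug genes and 0.01 for all probe sets, and 23 mug genes rose by at least 2-fold, against 3.87%. With quantile normalization on the S. pombe probe sets alone 38 rose and 13 fell, with a median of 0.18. Without slm9D 26 genes were called, and likewise 26 without hip1D. All 3 stress comparisons with unstressed cells share the unstressed arrays.

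mug14, which encodes a protein of the class II aldolase and adducin family, rose most at 40 °C. It was at 7.64 in WT, 8.08 in slm9D and 8.41 in hip1D without stress, and at 11.07, 11.24 and 11.62 at 40 °C. It was at 8.41, 8.97 and 9.0 after H2O2 and at 10.80, 10.54 and 10.86 after both. The strains thus moved together, with a rise of 3.26 ± 0.15 at 40 °C (3 against 3 arrays, limma adjusted p = 3.1e-06), 0.75 ± 0.15 after H2O2 and 2.69 ± 0.15 after both. mug143 was at 8.83, 9.11 and 9.17 without stress and at 10.96, 10.84 and 10.98 at 40 °C, a rise of 1.89 ± 0.16. mug146 was at 6.37, 7.31 and 7.29 without stress and at 8.32, 9.20 and 9.68 at 40 °C, a rise of 2.08 ± 0.23. It was at 5.19, 5.91 and 6.38 after both stresses, below the unstressed mean by 1.16 ± 0.23 with overlapping groups.

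mug147 was at 6.82 in WT, 8.17 in slm9D and 8.24 in hip1D without stress, and at 10.11, 9.93 and 9.80 when held at 40 °C. After H2O2 it was at 8.51, 9.67 and 9.74, and after both at 10.64, 10.56 and 10.57. The strains were apart without stress and after H2O2 and close together after 40 °C, with or without H2O2. mug108 rose by 2.70 ± 0.29 at 40 °C, 3.29 ± 0.29 after H2O2 and 4.56 ± 0.29 after both, and the groups of the first 2 comparisons overlapped. Among the genes that fell, mug64 was at 12.53, 12.38 and 12.38 without stress and at 11.71, 11.32 and 11.25 at 40 °C, a fall of 1.01 ± 0.06 in log2 units.

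mug185 (epr1), a receptor for the autophagy of the endoplasmic reticulum, rose by 1.16 ± 0.14 at 40 °C and by 0.93 ± 0.14 after both stresses, while its value after H2O2 alone was -0.17 ± 0.14 and did not pass. mug66 (atg101), of the complex that starts autophagy, rose by 0.83 ± 0.10, 0.81 ± 0.10 and 1.47 ± 0.10 after 40 °C, H2O2 and both. mug180 (say1) rose by 1.87 ± 0.28 at 40 °C and by 0.88 ± 0.28 after both, and mug35 by 1.45 ± 0.16 and 1.33 ± 0.16. mug96, which was under background in unstressed cells of all strains, was at 4.54 in WT, 4.84 in slm9D and 4.54 in hip1D at 40 °C, a rise of at least 1.77-fold.

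H2O2 alone moved the mug genes in both directions. 22 rose and 22 fell, against 15.8% and 29.2% of all probe sets, with a median difference of 0.02. With quantile normalization on the S. pombe probe sets alone 41 rose and 14 fell. The counts also turned on single strains, with 12 called without slm9D, 18 without hip1D and 84 without WT, and without the array of WT cells after H2O2 alone 32 rose and 18 fell. mug150 rose by 2.18 ± 0.20, from 6.53, 7.59 and 7.69 in WT, slm9D and hip1D to 8.91, 9.81 and 9.65. mug63 (oxr1), of a family that protects cells from oxidative damage, rose by 1.57 ± 0.10, from 7.68, 7.93 and 7.97 to 9.05, 9.59 and 9.65, and the groups did not overlap. Among the falls were mug176 (-1.26 ± 0.32), mug129 (-1.13 ± 0.16), mug178 (-1.01 ± 0.14), mug123 (-0.94 ± 0.28) and mug89 (-0.87 ± 0.13).

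After 40 °C followed by H2O2, 45 mug genes were higher and 20 lower than without stress, against 23.8% and 33.5% of all probe sets, with a median of 0.27. Without slm9D 40 genes were called, and without hip1D 43. mug158 (egt1) was at 8.05, 8.89 and 9.01 without stress, and at 9.5, 9.80 and 9.79 when held at 40 °C. After H2O2 it was at 8.25, 10.01 and 10.03, and after both at 11.48, 11.44 and 11.39. Its rise after both was 2.79 ± 0.31 (limma adjusted p = 7.61e-05), and WT cells after H2O2 alone were well below the mutants. mug176 fell by 2.75 ± 0.32, mug123 by 1.63 ± 0.28, mug129 by 1.34 ± 0.16 and mug164 by 1.1 ± 0.22.

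The question of the mild stress is put by the cells given H2O2 with and without the 40 °C step. In primed cells 31 mug genes were higher and 5 lower than in cells given H2O2 alone, against 18% and 17.8% of all probe sets, with a median of 0.20 against 0.04 for all. With quantile normalization on the S. pombe probe sets alone the counts were 25 and 16. They were 9 genes in all without slm9D, 13 without hip1D and 73 without WT, and without the array of WT cells after H2O2 alone 26 were higher and 7 lower. The largest differences were 2.01 ± 0.31 for mug158, 1.94 ± 0.15 for mug14, 1.71 ± 0.28 for mug191, 1.68 ± 0.40 for mug190 (tcb2, a tricalbin of membrane contact sites) and 1.45 ± 0.38 for mug126. mug190 was at 6.90, 8.92 and 8.91 after H2O2 alone in WT, slm9D and hip1D and at 9.99, 10.01 and 9.78 after both. The WT array thus moved much further than the mutant arrays, and without the array of WT cells after H2O2 alone the difference was 1.04 for mug190 and 0.92 for mug126. mug191 was at 8.83, 10.17 and 10.18 after H2O2 alone and at 11.47, 11.47 and 11.35 after both, so WT moved further there too. The same held for mug158, with WT at 8.25 and the mutant mean at 10.02 after H2O2 alone. For mug126 the WT value after H2O2 alone was not above background. The genes lower in primed cells were mug176 (-1.49 ± 0.32), mug64 (-0.85 ± 0.06), mug135 (-0.57 ± 0.12, groups overlapping), mug71 (-0.47 ± 0.09) and mug174 (-0.30 ± 0.09, groups overlapping).

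**Figure D5:**
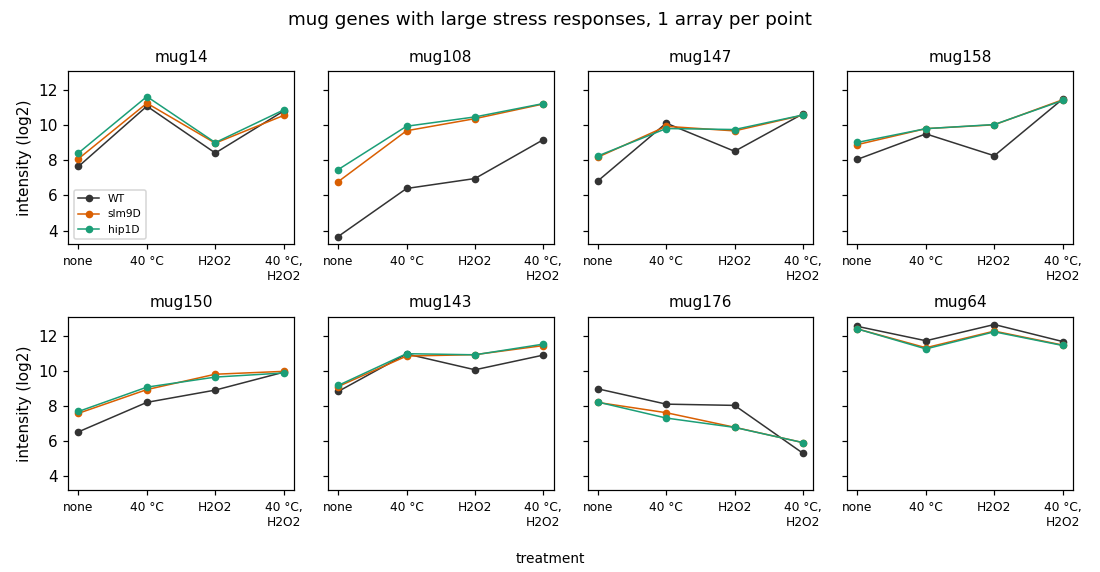
Log2 intensity of 8 mug genes with large stress responses in the 4 treatments, with 1 line for each strain and 1 array for each point. The strains follow each other for mug14 and mug64, while WT lies below the mutants after H2O2 alone for mug147 and mug158, and mug108 rises in all strains with WT below the mutants throughout.

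Whether the stress responses of the mutants differed from that of WT was tested as a difference of differences, in which every response shares the unstressed arrays and the WT response rests on 2 arrays. No WT array has a replicate, so the SE and p-values of these differences rest on the spread between slm9D and hip1D arrays alone. They hold no measured variation of WT. At 40 °C the response was called more positive in the mutants for 16 mug genes and less positive for 36, against 22.7% and 18% of all probe sets. After H2O2 it was 45 and 14 against 31% and 16.3%, and after both 27 and 33 against 26.8% and 19.2%. Under quantile normalization on the S. pombe probe sets alone the counts were 21 and 29 at 40 °C and 28 and 18 after H2O2. At 40 °C mug147 changed by 3.29 in WT, by 1.75 in slm9D and by 1.56 in hip1D, a difference of -1.63 ± 0.11 (limma adjusted p = 1.54e-09). mug180 (say1) changed by 2.83 in WT, 1.40 in slm9D and 1.36 in hip1D. mug55 changed by 0.48 in WT, where it stayed under background, and by 1.82 and 1.74 in the mutants.

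After H2O2 the WT value of mug8 changed by -0.78 and those of slm9D and hip1D by 1.52 and 1.37, a difference of 2.22 ± 0.16 (limma adjusted p = 4.02e-09). mug9 changed by -0.28 in WT and by 1.64 and 1.59 in the mutants. mug106 was lower in WT and higher in both mutants after either stress alone, with -0.84, 0.54 and 0.32 at 40 °C and -1.23, 0.69 and 0.42 after H2O2. mug16 went the other way, up by 1.16 in WT after H2O2 with 0.14 and -0.16 in the mutants. After both stresses mug123 changed by -2.73 in WT and by -1.02 and -1.13 in the mutants, and mug98 by 1.79 in WT and by 0.40 and 0.21 in the mutants.

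Other genes of meiosis and sporulation were set beside the mug genes for the mutants against WT over all treatments. There 54% of all probe sets were called, with 25.3% higher and 28.7% lower, and 6.41% rose by at least 2-fold. Of 19 genes named meu, 15 were higher and 0 lower, with a median of 1.09, and 11 rose by at least 2-fold. Of 11 rec genes of meiotic recombination 8 were higher and 1 lower (median 0.46), and of 10 spo genes of sporulation 5 were higher and 1 lower (median 0.53). rec10, a component of the linear elements along meiotic chromosomes, was higher by 3.73 ± 0.16 and spo6, a regulatory subunit of a meiotic kinase, by 2.78 ± 0.12. Of 19 meiotic regulators 11 were higher and 1 lower, with mei4 higher by 1.84 ± 0.14, the meiosis-specific regulator cuf2 by 2.86 ± 0.16, and ste11 lower by 1.03 ± 0.17. mmi1 itself differed by 0.32 ± 0.14, which did not pass. Of 6 known targets of Mmi1, all of them also among the 19 regulators, 5 were higher and 0 lower (median 1.04). Of 10 genes of the sporulation septins and the forespore membrane 5 were higher and 1 lower, led by the septin gene spn6 at 3.42 ± 0.36. These lists share genes, such as rec8 and spo5 with the regulators and spo3 and spo15 with the forespore membrane genes. Their counts are therefore not separate results.

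RefSeq places 5 pairs of mug genes as neighbours with no other protein-coding gene between them. mug163 and mug55 were both higher in the mutants, by 0.84 ± 0.13 and 3.14 ± 0.21, and rose by 1.16 and 1.35 at 40 °C. mug177 and mug58 were both lower, by 0.58 ± 0.20 and 0.39 ± 0.06. mug97 was higher by 2.71 ± 0.20 while its neighbour mug57 differed by -0.14 ± 0.12, which did not pass. mug116 differed by -0.13 ± 0.15 and did not pass, and its neighbour mug86 was lower. mug66 and mug105 differed by 0.04 ± 0.07 and 0.06 ± 0.08 between mutants and WT, with no call, and by 0.83 and 0.56 at 40 °C.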

How the data were processed

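Per the submitters' processing notes, the authors ran RMA in Affymetrix Expression Console 1.1, which gave the deposited intensity of each probe set. RMA corrects background, quantile-normalizes the arrays and summarises probes, so differences in total RNA are removed. The deposited intensity values run from 2.88 to 20293 on a linear scale, although the design had assumed log2 values, and log2 was taken of them. Of 10928 probe sets, 213 are controls, 5177 have no name, 20 match several S. pombe genes and 2917 match 1 gene (2899 genes), 3 of them by symbol. All 12 value columns were used and 0 were unused. Gene names and neighbours come from the platform annotation and the RefSeq table (assembly ASM294v3), without coordinates, because the sources used here name no build for the array. Sequences and promoter motifs were not analysed here.

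Tests used limma 3.58.1 in R 4.3.3 (eBayes with a trend), and p-values were adjusted by Benjamini-Hochberg over 2917 probe sets, with calls at an adjusted p under 0.05. Comparisons over all treatments and of stresses came from a fit of strain and treatment (6 residual degrees of freedom), those within a treatment from 8 means (4), and the response differences from the 8 means plus a slm9D-hip1D term (3). The fits were tested on simulated data. The number of arrays limits the precision. Alternatives were other scalings, a filter on dim probe sets (113 of 115 mug probe sets pass), a floor at the background, no trend, other background levels, and leaving out strains, treatments or an array. The rule for the members uses gene symbols alone, but the rule and the gene lists were chosen with earlier results of these data known. Named mug genes are the called ones with the largest differences, up to 15 higher and 10 lower over all treatments and 5 and 5 in each other comparison, those above background in 1 group of arrays alone, and those with the 3 highest and 3 lowest means. Other genes named (roles, neighbours, renamed genes, mug10 and mug5) were chosen after their values were seen. The list markers matpc and matpi were not analysed here.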

Additional observations from a re-analysis of the deposited data

Results flagged for a closer look

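The stress responses of the mutants differed from the WT response, by the test of the difference itself, for 52 mug genes at 40 °C, 59 after H2O2 and 60 after both stresses (limma). These are 45.2%, 51.3% and 52.2% of the mug genes, near the 40.7%, 47.3% and 46.0% of all probe sets. The values below are mutant response minus WT response in log2 units. At 40 °C they were 1.55 for mug115, 1.29 for mug55, 1.27 for mug106, 1.03 for mug15 and 0.98 for mug155, and on the negative side -1.63 for mug147, -1.45 for mug180, -1.35 for mug97, -1.25 for mug68 and -1.25 for mug126. After H2O2 they were 2.22 for mug8, 1.90 for mug9, 1.78 for mug106, 1.70 for mug115 and 1.5 for mug132, and -1.16 for mug16, -0.91 for mug146, -0.75 for mug125, -0.72 for mug72 and -0.62 for mug151. After both they were 1.66 for mug123, 1.47 for mug177, 1.37 for mug176, 1.34 for mug106 and 1.25 for mug137, and -1.49 for mug98, -1.46 for mug147, -1.42 for mug108, -1.35 for mug111 and -1.31 for mug27. In WT, mug55 without stress and at 40 °C, mug137 without stress and after both, and mug68 and mug108 without stress were not above background, so the values of these genes are no measure of the WT response. mug106 was among the 5 most positive in all 3, which share the unstressed arrays. The WT response rests on 1 array for each treatment, and the array after H2O2 alone had the lowest median and the highest background.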

How the results depend on the processing

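With arrays left out, the number of mug genes called ran from 41 to 63 for mutants against WT over all treatments, from 26 to 86 for 40 °C against no stress, from 12 to 84 for H2O2, from 40 to 94 for both stresses, from 9 to 73 for primed against unprimed cells, and was 0 throughout for slm9D against hip1D. Fewer arrays also leave fewer degrees of freedom. The mug share above background was 87.8% in WT and 96.4% in the mutants at the 99th percentile. Over all probe sets it was 97.5% and 99.3% there. At the mean of the 12 levels the mug shares were 94.8% in WT and 98.0% in the mutants. That was 107 to 111 mug genes on the WT arrays and 112 to 113 on the mutant arrays. At the highest of the 12 levels the mug shares were 92.4% in WT and 97.5% in the mutants. Of 3148 alternatives of 473 results of named genes, 2826 kept direction and call, 311 kept direction alone and 11 turned, all 11 under quantile normalization on the S. pombe probe sets alone. For mutants against WT, the turned log2 differences were -0.16 for mug100 and -0.0056 for mug15 without stress, -0.13 for mug68 and -0.24 for mug9 at 40 °C, -0.061 for mug100, -0.77 for mug115, -0.28 for mug155 and -0.052 for mug82 after H2O2, and -0.43 for mug176 after both. For the response differences they were 0.082 for mug111 at 40 °C and -0.045 for mug123 after H2O2. Over all treatments that scaling kept 40 of 52 calls higher and 13 of 13 lower, and it called mug10 (-0.46) and mug5 (-0.28) lower, which were higher by 0.54 and 0.41 as deposited. The cause was not tested. The filter on dim probe sets, the floor and the fit without a trend kept every count of calls within 1.5 times. Genes near background have only bounds, and 1 array for each strain and treatment leaves no replicate of a WT response.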
